A study of Mus musculus with 8 samples.

Results

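The genes described here encode caspases, Apaf1, which activates Casp9, and proteins of the inhibitor of apoptosis (IAP) family. They were measured in mouse bone marrow cells sorted by FACS on Cd11b, an integrin subunit of granulocytes and monocytes. The members were fixed by name: Apaf1, Casp9, Casp2, Casp8, Casp6, Xiap, Birc2 and Birc3. Every probe set annotated to 1 of these 8 genes was taken, which gave 19 of the 45037 probe sets tested. The 4 control samples had the genotype E2F1-/-2+/+3f/f: E2f1 null, intact E2f2, floxed E2f3 and no Cre. The 4 experimental samples were Mxcre;E2F1-/-2-/-3f/f: E2f1 null, E2f2 null, floxed E2f3 and Cre under the Mx promoter, which interferon switches on in many cell types besides myeloid cells. All mice were 8 weeks old, on a mixed FVB and C57BL6 background, and all were injected 5 times with 250 µg of pIpC, an interferon-inducing synthetic double-stranded RNA, the last time 24 h before death. Cre was present in every experimental sample and in no control, so effects of Cre and of the E2f alleles cannot be told apart. Nothing says that each sample came from its own animal, so p-values reflect only how far these samples vary, part of which may be technical.

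Caspases are cysteine proteases made as inactive precursors. Initiator caspases are switched on in large adaptor complexes and then cleave executioner caspases, which dismantle the cell. In the mitochondrial route, cytochrome c released from mitochondria lets Apaf1 assemble into the apoptosome, the platform on which Casp9 is activated; in the death receptor route, Casp8 is activated by the adaptor Fadd. XIAP inhibits caspases by direct binding, whereas cIAP1 and cIAP2, the products of Birc2 and Birc3, act mainly as ubiquitin ligases in signalling from tumour necrosis factor receptors. Neutrophils are short-lived cells that die by apoptosis within days in the resting animal. Apaf1 and several caspase genes have been reported as targets of E2F1, and the comparison asks how they differ when E2f2 and E2f3 are targeted in cells that already lack E2f1.

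The sequence just upstream of 3 members is shown because it bears on that question: Casp2 is the member gene with an E2F motif in its window, Apaf1 is a reported E2F1 target, and Birc2 is the member that changed. The windows are the 250 bases before an annotated start, from RefSeq on GRCm38.p6, 5′ to 3′ on the strand of the gene. They lie at chr6:42264735-42264984 (plus strand) for Casp2, chr10:91082744-91082993 (minus strand) for Apaf1 and chr9:7837058-7837307 (minus strand) for Birc2. Capitals mark TTTCCCGC, an E2F motif, in Casp2 and TGACGTCA, the cAMP response element, in Birc2.
Casp2: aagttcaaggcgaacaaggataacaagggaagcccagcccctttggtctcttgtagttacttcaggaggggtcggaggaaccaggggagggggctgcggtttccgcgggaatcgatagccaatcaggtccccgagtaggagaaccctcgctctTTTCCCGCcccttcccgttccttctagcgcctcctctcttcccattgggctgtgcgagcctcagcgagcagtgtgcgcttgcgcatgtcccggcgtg
Apaf1: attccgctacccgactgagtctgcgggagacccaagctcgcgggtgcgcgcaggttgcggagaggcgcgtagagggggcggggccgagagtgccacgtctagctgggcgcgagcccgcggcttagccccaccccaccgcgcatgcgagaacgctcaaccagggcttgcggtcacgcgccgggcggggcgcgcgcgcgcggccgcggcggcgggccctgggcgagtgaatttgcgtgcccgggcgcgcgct
Birc2: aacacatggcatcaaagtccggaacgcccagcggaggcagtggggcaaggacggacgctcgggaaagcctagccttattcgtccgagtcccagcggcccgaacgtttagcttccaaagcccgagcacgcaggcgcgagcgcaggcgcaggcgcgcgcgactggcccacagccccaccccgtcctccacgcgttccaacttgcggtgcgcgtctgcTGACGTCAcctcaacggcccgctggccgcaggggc
All 8 genes matched the RefSeq promoter table, with 11 windows, since Xiap has 3 and Birc2 has 2. The E2F forms searched on both strands were TTTCCCGC, TTTCGCGC, TTTGCCGC and TTTGGCGC, and 1 of the 11 windows held any of them, beside 1.86% of the 32851 windows of the same length in the table. The interferon-stimulated response element, searched as a 10-letter form, was in 0 of the 11 and in 2.98% of all windows, and a 10-letter NF-kappaB motif was in 0 of the 11 and in 1.41%. The 9-letter core of the interferon element, GAAANNGAA, was searched after the longer form had given no match. It was in 1 of the 11, a window of Xiap, and in 7.13% of all windows. TGACGTCA, searched with no question attached to it, was in 1 of the 11 and in 1.55% of all windows. The windows of Casp2 and Birc2 shown were chosen with these matches known, and the other Birc2 window held none of the motifs. None of these motifs overlapped another in the member windows, and a match is a stretch of letters, not a site at which binding was measured.

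Values are log2 levels per probe set, whose medians lay between 5.01 and 5.05 in all 8 arrays. Of the targeted genes, E2f2 was lower at probe set 1455790_at (7.92 ± 0.19 in controls, 7.26 ± 0.21 in experimental samples, SD, n = 4 each; difference -0.66 ± 0.13 SE, limma adjusted p = 0.0351) and read 9.85 ± 0.28 and 9.31 ± 0.21 at 1436434_at (difference -0.55, adjusted p = 0.107). E2f3 read 0.29 and 0.11 above control and the 3 probe sets of E2f1 between 0.24 and 0.58 above it, none past an adjusted p of 0.05. With code style as a block 1 of them, 1431875_a_at, passed (difference 0.48, adjusted p = 0.0256; 0.0549 with the replicate block). Whether these probe sets lie in the deleted parts was not analysed here. Of the neutrophil and monocyte markers, the 3 brightest had mean levels of 14.46 for S100a9, 14.39 for Camp and 14.36 for S100a8. Itgam, the gene of the sort marker Cd11b, had a mean level of 11.56 (difference -0.04, limma adjusted p = 0.911). The 3′ to 5′ signal ratio of the actin controls, which follows RNA integrity, was higher in every experimental array (log2 ratio 0.34 to 0.54) than in every control (0.27 to 0.32); its part in the results below was not tested.

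Of the 19 member probe sets, 1 changed past an adjusted p of 0.05: Birc2 fell. That compares with 2.58% of all probe sets past the threshold and 1.55% lower. Birc2 was the only member probe set without overlap between the groups, its 4 experimental arrays all below the 4 controls. Over all probe sets 6.15% were lower without overlap, a share that 1 of 19 does not exceed. The share higher without overlap, which some genes outside the members were, was not analysed here. By role the signs were split. All 10 probe sets of the 3 member IAP genes read lower in experimental samples, with differences of -0.56 to -0.08 and a median of -0.26. At their brightest probe sets Xiap, Birc2 and Birc3 differed by -0.18, -0.46 and -0.15. The 5 other IAP genes measured, each at its brightest probe set, had a median difference of -0.0003, with 0 past the threshold. Both probe sets of Apaf1 and 5 of the 7 caspase probe sets read higher, with caspase differences of -0.11 to 0.25 and a median of 0.12. Over all probe sets 49.4% read lower and 50.6% higher, with a median of 0.0027. These are counts of signs without a test, and the 10 IAP probe sets report on only 3 genes, 7 of them on Xiap.

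**Figure D1:**
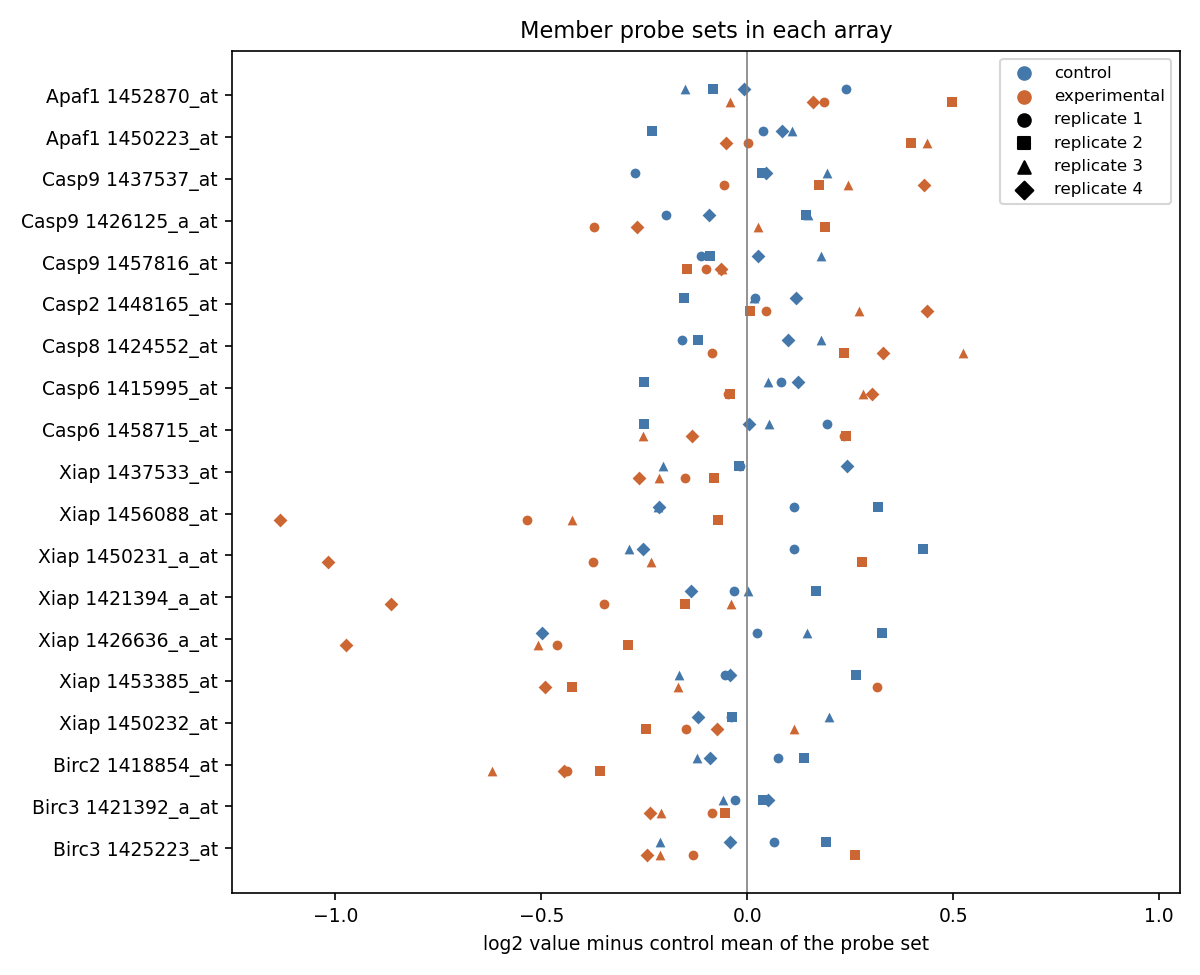
Each row is a member probe set and each point an array, as the log2 value minus the mean of the 4 controls; colour gives the group and shape the replicate. Birc2 is the row in which all 4 experimental points lie left of all 4 controls, and experimental replicate 4 is the leftmost point in 6 of the 7 Xiap rows.

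**Figure D2:**
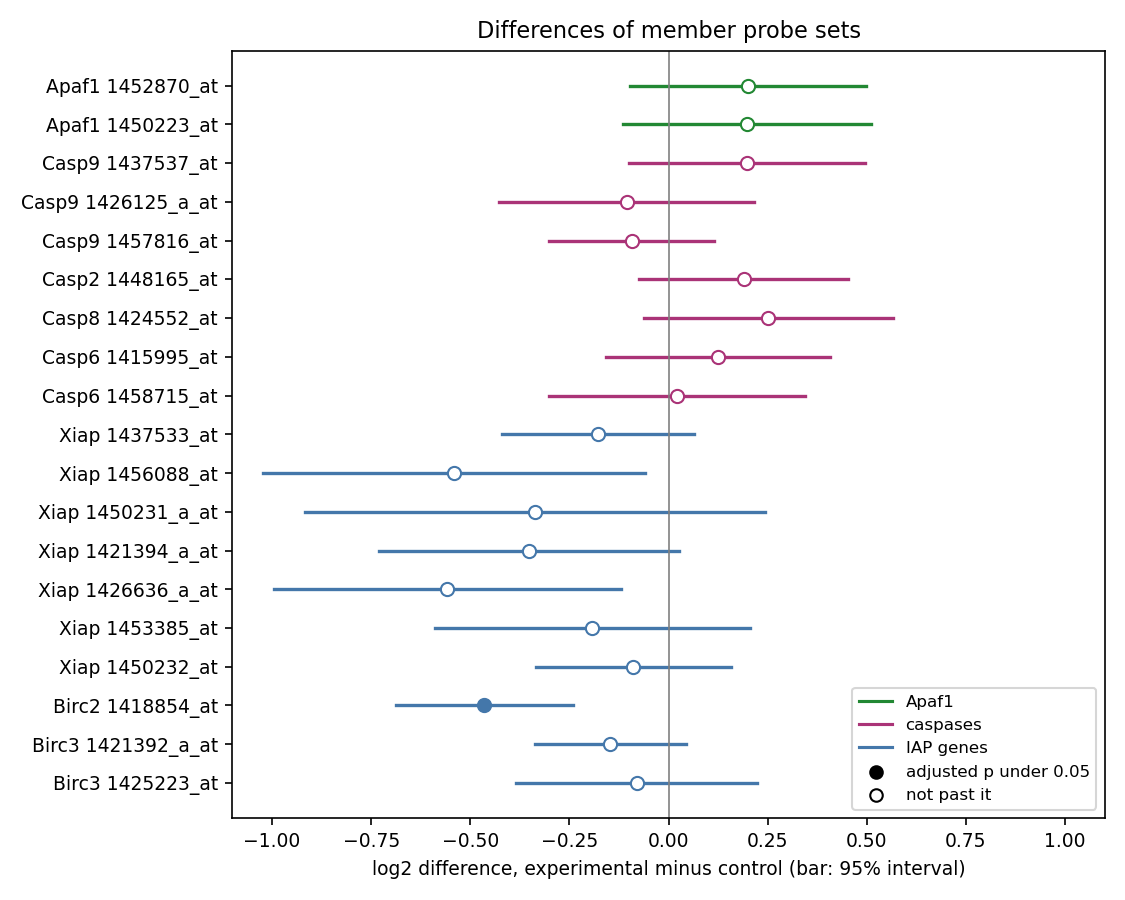
Log2 difference, experimental minus control, for each member probe set, with its 95% interval from the limma fit (n = 4 per group); a filled point passed adjusted p 0.05. Birc2 at -0.46 is the filled point, and the intervals of Apaf1 and all caspases span 0.

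Apaf1, the scaffold of the apoptosome, did not change past the threshold. Probe set 1452870_at read 10.17, 9.85, 9.78 and 9.92 in control replicates 1 to 4 and 10.12, 10.43, 9.89 and 10.09 in experimental replicates 1 to 4. Experimental replicate 2 was the highest array, and the other 3 lay within the range of the controls. The difference was 0.20 ± 0.13 (SE, limma adjusted p = 0.494), with a 95% interval of -0.10 to 0.50, whose upper end is 1.41-fold. The second probe set, 1450223_at, read 9.14, 8.87, 9.21 and 9.19 in controls and 9.11, 9.50, 9.54 and 9.05 in experimental samples. Here experimental replicates 2 and 3 lay above every control and the other 2 within their range. Its difference was again 0.20 (± 0.14, adjusted p = 0.525, interval -0.12 to 0.51). Both probe sets of this reported E2F1 target thus gave a difference within the spread between arrays.

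Casp9, the initiator caspase that Apaf1 activates, had 3 probe sets that did not share a sign. At 1437537_at the controls read 7.64, 7.95, 8.10 and 7.96 and the experimental samples 7.85, 8.09, 8.15 and 8.34. The groups overlapped, with experimental replicate 4 highest and control replicate 1 lowest. The difference was 0.20 ± 0.13 (adjusted p = 0.500, interval -0.10 to 0.50). The other 2 probe sets read slightly lower: 1426125_a_at at 6.999 ± 0.17 in controls and 6.89 ± 0.26 in experimental samples (difference -0.11, adjusted p = 0.766) and 1457816_at at 6.96 ± 0.13 and 6.86 ± 0.04 (difference -0.09, adjusted p = 0.667). Casp9 lies on chromosome 4 with E2f2, separated from it by 91 measured genes. Of these, 2 passed the threshold, both lower, beside 3.47% of all genes past it and 1.95% lower.

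Casp2, a caspase that responds to DNA damage and mitotic failure, carries the TTTCCCGC motif in the window shown above. Its probe set 1448165_at read 9.59, 9.41, 9.58 and 9.68 in controls and 9.61, 9.57, 9.84 and 10.002 in experimental samples. Experimental replicates 3 and 4 lay above all controls and replicates 1 and 2 among them. The difference was 0.19 ± 0.12 (adjusted p = 0.460, interval -0.07 to 0.45).

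Casp8, the initiator of the death receptor route, had the highest difference among the members. Probe set 1424552_at read 9.50, 9.54, 9.84 and 9.75 in controls and 9.57, 9.89, 10.18 and 9.99 in experimental samples. Experimental replicates 2, 3 and 4 lay above every control, and replicate 1 lay among them. The difference was 0.25 ± 0.14 (adjusted p = 0.407, interval -0.06 to 0.57, whose upper end is 1.48-fold). Sample codes come in 2 styles, each with 2 arrays of both groups, and the difference was 0.21 in the style of replicates 1 and 2 and 0.29 in that of replicates 3 and 4.

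Casp6, an executioner caspase that cleaves nuclear lamins, read 7.43, 7.10, 7.40 and 7.47 in controls and 7.30, 7.31, 7.63 and 7.65 in experimental samples at 1415995_at. Again experimental replicates 3 and 4 were above all controls and replicates 1 and 2 among them. The difference was 0.12 ± 0.13 (adjusted p = 0.677). A second probe set, 1458715_at, lay below the median level of the table at 4.11 ± 0.19 and 4.13 ± 0.25, with a difference of 0.02 (adjusted p = 0.961) whose sign turned under some alternatives.

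Birc2, which encodes the ubiquitin ligase cIAP1, fell. Its probe set 1418854_at read 8.66, 8.72, 8.46 and 8.49 in control replicates 1 to 4 and 8.15, 8.23, 7.96 and 8.14 in experimental replicates 1 to 4. The highest experimental array lay below the lowest control, and in both groups replicate 2 was highest and replicate 3 lowest. The means were 8.58 ± 0.13 and 8.12 ± 0.11 (SD, n = 4 each), a difference of -0.46 ± 0.10 (SE, limma adjusted p = 0.0426, interval -0.69 to -0.24), or 72.5% of the control level. With replicate number as a block the difference was the same, with adjusted p = 0.0304. By style of sample code it was -0.50 for replicates 1 and 2 and -0.43 for replicates 3 and 4.

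The call of Birc2 sat close to the threshold. Among the 8 fits that leave out 1 array it passed only without experimental replicate 2 (adjusted p = 0.0399). Without any 1 control, or without experimental replicate 1, 3 or 4, the adjusted p was 0.0594 to 0.133. It also missed the threshold with median centring (0.0523), repeated quantile normalization (0.0616), trended and robust variance (0.0636) and inferred sex as a block (0.0892). In all 17 alternatives the difference stayed between -0.51 and -0.41.

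**Figure D3:**
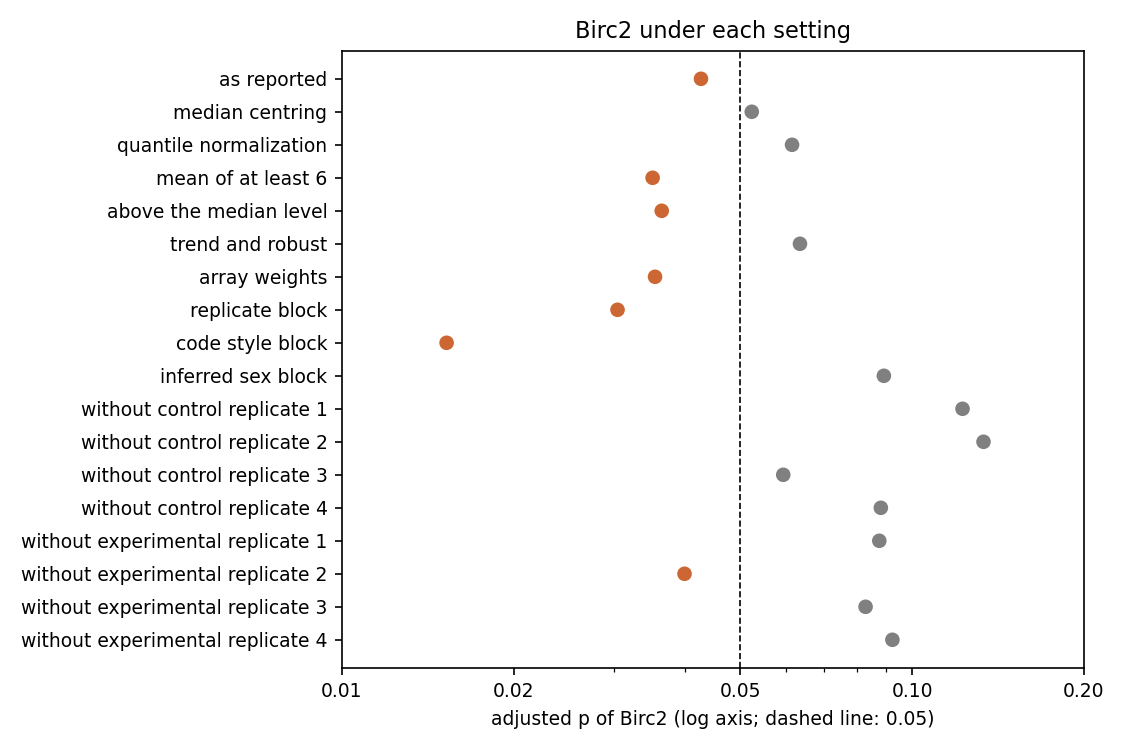
Adjusted p of Birc2 (log axis) as reported and under each of the 17 alternatives; the dashed line marks 0.05 and coloured points are below it. The value as reported is 0.0426, and 11 of the 17 alternatives lie to the right of the line.

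Birc3, the gene for cIAP2, is the next protein-coding gene to Birc2 on chromosome 9 in the RefSeq order. Probe set 1421392_a_at read 9.82, 9.88, 9.79 and 9.89 in controls and 9.76, 9.79, 9.63 and 9.61 in experimental samples. Experimental replicate 2 was just above the lowest control and the other 3 were below all controls. The difference was -0.15 ± 0.09 (adjusted p = 0.426, interval -0.34 to 0.04), and at 1425223_at it was -0.08 ± 0.14 (6.78 ± 0.17 and 6.70 ± 0.23, adjusted p = 0.818). Set against Birc3 within each array, the log2 value of Birc2 minus that of 1421392_a_at ran from -1.40 to -1.16 in controls and from -1.67 to -1.47 in experimental samples, without overlap. Minus 1425223_at it ran from 1.75 to 1.90 and from 1.19 to 1.603, again without overlap. Minus the brightest Xiap probe set, 1437533_at, it ran from -1.65 to -1.16 in controls and from -1.719 to -1.498 in experimental samples, and here the groups overlapped. These 3 partners were chosen after their values were seen. A two-sided exact permutation of all 8 arrays, which ignores replicate number, gave p = 0.0286 for each Birc3 probe set and 0.114 for Xiap. With arrays of the same number kept as pairs, the exact p was 0.125 for each Birc3 probe set, the smallest that 4 pairs allow, and 0.25 for Xiap. Since Birc2 had already passed and the partners were picked by eye, none of these p-values supports a difference.

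Xiap, whose product binds and inhibits caspases directly, had 7 probe sets, all lower in experimental samples and none past the threshold. The one with the highest mean, 1437533_at, read 9.88, 9.88, 9.69 and 10.14 in controls and 9.74, 9.82, 9.68 and 9.64 in experimental samples. Control replicate 3 lay among the experimental arrays. The difference was -0.18 ± 0.11 (adjusted p = 0.450, interval -0.42 to 0.06). At 1456088_at the controls read 8.33, 8.53, 8.00 and 8.00 and the experimental samples 7.68, 8.15, 7.79 and 7.08. Experimental replicate 2 lay among the controls and the other 3 below them, replicate 4 by far. This difference was -0.54 ± 0.22 (adjusted p = 0.234, interval -1.02 to -0.06).

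Of the other 5 Xiap probe sets, 1450231_a_at read 0.34 lower (adjusted p = 0.562), and the other 4, with means below the median level of the table (5.03), differed by -0.56 to -0.09. The dim probe set 1426636_a_at read 4.06, 4.37, 4.18 and 3.54 in controls and 3.58, 3.75, 3.53 and 3.06 in experimental samples. Control replicate 4 lay among the experimental arrays, yet each experimental array was below the control of the same number. Its difference was -0.56 ± 0.20 (adjusted p = 0.178), and with replicate number as a block -0.56 ± 0.09 (adjusted p = 0.0189). It did not pass when code style was the block (adjusted p = 0.0764). With the replicate block 2 of the 19 member probe sets passed, Birc2 and this one, beside 5.06% of all probe sets. Experimental replicate 4, which had the highest actin ratio (0.54), was the lowest of all 8 arrays in 6 of the 7 Xiap probe sets. Without it the difference was -0.34 at 1456088_at, -0.18 at 1421394_a_at, -0.11 at 1450231_a_at and -0.42 at 1426636_a_at. It was -0.15 at the brightest, 1437533_at, against -0.18 with all arrays, and -0.09 at 1453385_at, against -0.19. Xiap is on the X chromosome, and by Xist and Eif2s3y 2 of the 4 controls and 3 of the 4 experimental samples were female.

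No member probe set had an effect that differed between the styles of sample code (limma interaction term, 0 of 19 at adjusted p 0.05, smallest adjusted p = 0.637, 0 at an unadjusted p of 0.05; 0.0111% of all probe sets), and 18 of 19 had the same sign within replicates 1 and 2 as within replicates 3 and 4. Across the 8 arrays, the genes with the pattern most like Birc2 among 8716 genes compared were Ngly1 (Pearson r = 0.994), Tyrobp (0.981) and Snrk (0.980). For Apaf1 (1452870_at) they were Acadl (0.958), Glod4 (0.958) and Klhl6 (0.956). These correlations describe arrays that share group, normalization and sample code style.

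The wider apoptosis machinery was read from 8 lists by role, in which 40 of 45 genes had a probe set of their own here, each taken at its brightest probe set. Of the 40, 2 fell and 0 rose, Fas and Tnfaip3, beside 3.47% of all 18193 genes past the threshold and 1.95% lower. The median difference was 0.02 over the 40 and 0.01 over all genes. Tnfaip3, which encodes the NF-kappaB inhibitor A20 and was listed with the cIAP partners, read 8.32, 8.74, 8.19 and 8.34 in controls and 7.37, 7.67, 7.11 and 7.49 in experimental samples. The groups were well apart. The difference was -0.99 ± 0.15 (SE, limma adjusted p = 0.0123), or 50.4% of the control level, and it passed in all 17 alternatives (adjusted p = 0.0033 to 0.0422).

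Fas, a death receptor that recruits Fadd and Casp8, read 7.54, 7.37, 7.36 and 7.79 in controls and 6.55, 6.92, 6.86 and 7.11 in experimental samples. All 4 experimental arrays were below all controls. The difference was -0.66 ± 0.14 (adjusted p = 0.0426), and among the fits that leave out 1 array it passed only without experimental replicate 4 (0.0475; 0.0514 to 0.114 in the other 7).

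In the other 6 lists none of 29 genes passed (limma; 11 had an unadjusted p under 0.05, beside 18.9% of all genes). Casp1, the inflammatory caspase that matures interleukin 1 beta, read 8.95 ± 0.22 in controls and 9.33 ± 0.13 in experimental samples (difference 0.38, adjusted p = 0.154), without overlap between the groups, and Casp4 differed by 0.38 (adjusted p = 0.321). Among other IAP genes, Birc5, which encodes the mitotic protein survivin, read 10.22 ± 0.06 and 9.97 ± 0.10 (difference -0.25, adjusted p = 0.183), also without overlap, and Birc6 differed by 0.24 (adjusted p = 0.508). Of the IAP antagonists, Htra2 differed by 0.29 (adjusted p = 0.257) and the interferon-induced Xaf1 by 0.68 (adjusted p = 0.493), the latter with experimental arrays from 7.37 to 9.83. Of the mitochondrial death factors, Aifm1 differed by 0.34 (adjusted p = 0.160) and Endog by 0.57 (adjusted p = 0.328).

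Among adaptors, Ripk3, the kinase of necroptosis, read 7.56, 7.58, 7.81 and 7.61 in controls and 7.90, 8.08, 8.80 and 8.47 in experimental samples. Every experimental array was above every control. The difference was 0.68 ± 0.18 (adjusted p = 0.0893), and with replicate number as a block it passed (0.68 ± 0.13, adjusted p = 0.0291), as it did with code style as a block (0.0191). Cradd, the adaptor that links PIDD to Casp2, differed by -0.41 ± 0.12 (adjusted p = 0.104). The block for code style brought it past the threshold (adjusted p = 0.0336) and the replicate block did not (0.0613). Of the caspase substrates, the lamin gene Lmna, whose protein Casp6 cleaves, differed by 0.66 (adjusted p = 0.122) and Dffa, the nuclease inhibitor, by -0.29 (adjusted p = 0.219).

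**Figure D4:**
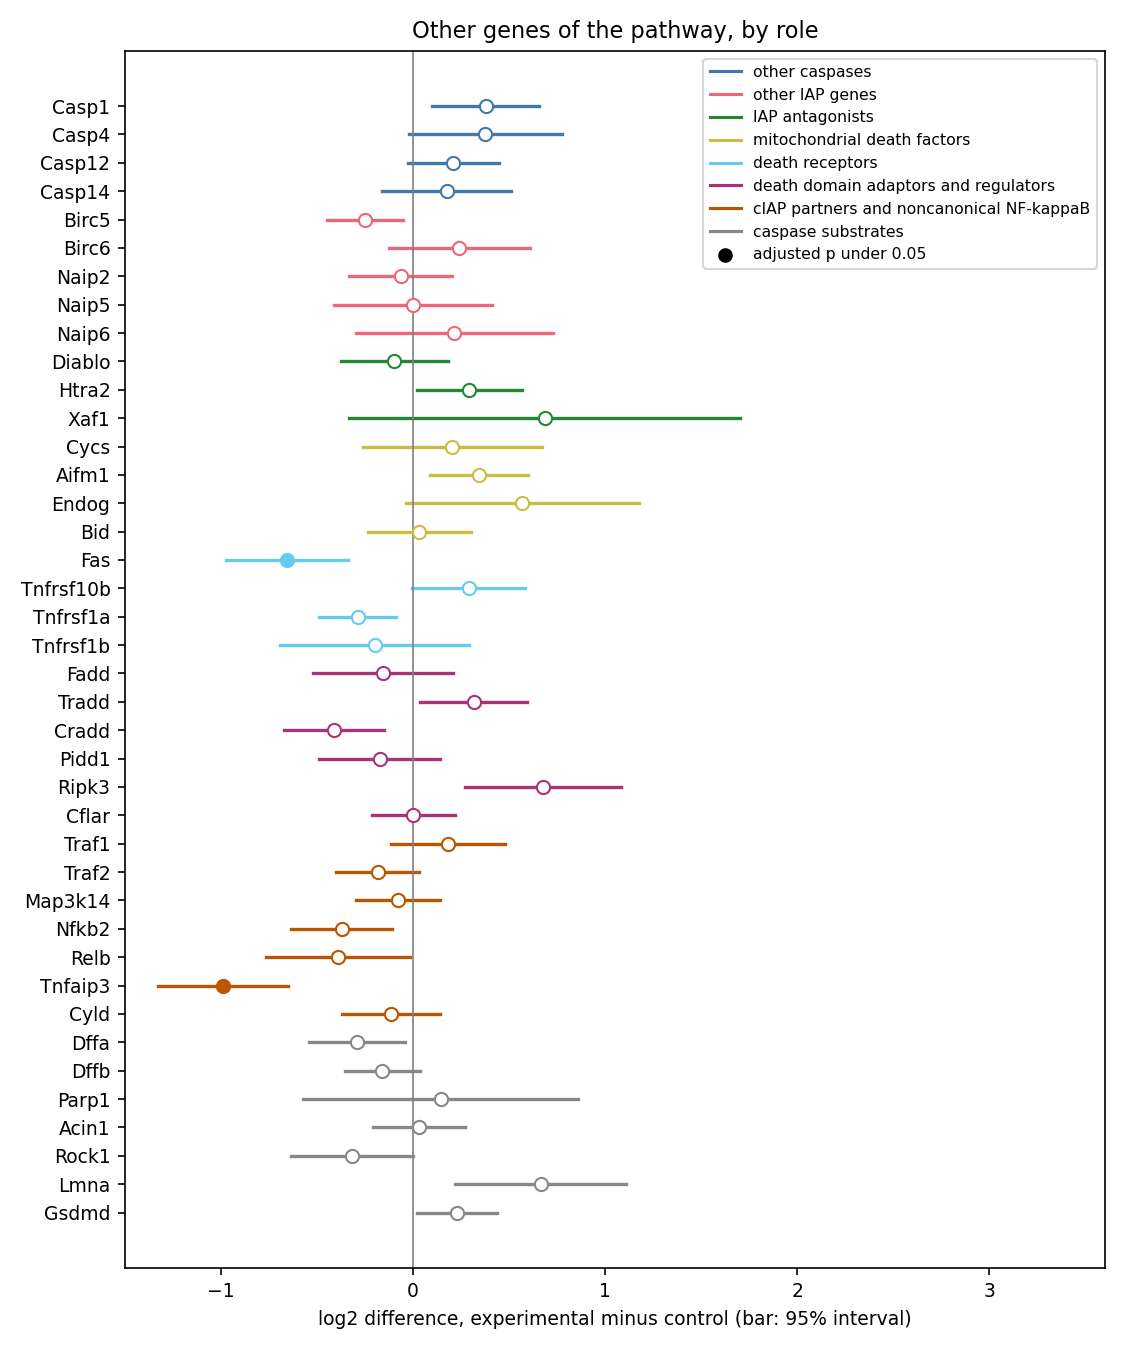
Log2 difference, experimental minus control, with its 95% interval for the 40 other genes of the pathway, coloured by role; filled points passed adjusted p 0.05. Tnfaip3 (-0.99) and Fas (-0.66) are the filled points, and the caspases, other than members, lie to the right of 0 without passing.

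Markers of other cell types moved with the groups, and in bulk samples fewer cells of a type and less RNA per cell cannot be told apart. Of 11 B cell markers measured, 6 fell and 0 rose, and their summed linear signal was 1688 to 3340 in controls and 867.7 to 1199 in experimental samples. Cd79b differed by -1.31, Vpreb3 by -1.47 and Vpreb1 by -0.08, and Ebf1 (-1.29, adjusted p = 0.0804) passed with either block (0.0124 by replicate number, 0.0128 by code style). Of 7 megakaryocyte markers 3 fell, Pf4 (-1.49), Ppbp (-2.24) and Tubb1 (-1.09), with sums of 664 to 1017 and 429.6 to 488.4. The other 2 of the 3 brightest, Gp9 and Itga2b, differed by 0.24 (adjusted p = 0.567) and -0.49 (0.0568), and Itga2b passed with the replicate block (0.0357) and with code style as a block (0.0192). Of 8 dendritic cell markers 3 fell, Cd209a (-2.37), Siglech (-1.29) and Ccr9 (-1.24), with sums of 1066 to 1268 and 465.2 to 1104. The brightest of that list, Bst2, differed by -0.24 (adjusted p = 0.870) and Itgax by -0.62 (0.219), while Zbtb46 and Xcr1 read 0.26 and 0.25 higher without passing. None of 8 T and NK cell markers passed (limma, 5 at an unadjusted p of 0.05, all 5 higher). Their median difference was 0.58, with sums of 1523 to 6058 and 3382 to 5290. Their brightest, Cd3d, Nkg7 and Gzma, differed by -0.54, 1.04 and -0.16, and Nkg7, Cd3g and Cd247 had all 4 experimental arrays above all 4 controls. Cd3d read 7.92 in control replicate 1, which had the lowest sum, 11.49 to 12.05 in the other controls and 9.47 to 10.65 in experimental arrays. It made up most of the sum in control replicates 2 to 4, and the sum without Cd3d was not analysed here. With the replicate block 3 of the 8 rose, Nkg7 (1.04, adjusted p = 0.0343), Il2rb (1.02, 0.0276) and Cd247 (0.85, 0.0448), and with code style as a block Nkg7 (0.0153) and Cd247 (0.0460). None of 6 erythroid markers passed (limma, 2 at an unadjusted p of 0.05), with sums of 2034 to 2527 and 2274 to 6082. Their brightest, Tfrc, Alas2 and Klf1, differed by 0.58, 1.099 and 0.27, and Alas2 rose with the replicate block (adjusted p = 0.0342; 0.0559 with code style as a block). Of 10 neutrophil and monocyte markers 1 fell, Csf3r (-0.65), with sums of 128800 to 134800 and 124200 to 129900. The brightest markers dominate these sums. Csf1r differed by -0.64 (limma adjusted p = 0.178), with overlap, and Camp by -0.13 (0.431), without overlap. Mpo and Elane read 0.27 and 0.26 higher without passing. Itgam, Ebf1, Ppbp, Tubb1, Siglech, Ccr9, Zbtb46, Xcr1, Cd3g, Cd247, Il2rb, Csf3r, Csf1r, Mpo and Elane are named after their values were seen. The B cell and megakaryocyte sums separated the groups as Birc2, Fas and Tnfaip3 did. So did the dendritic cell markers Cd209a, Siglech and Ccr9, each taken alone. The dendritic cell sum overlapped through experimental replicate 3 (1104), in which Bst2 read 9.39, against 6.44 to 7.52 in the other experimental arrays. Those other arrays had sums of 465.2 to 654.5. The part of these cell types in the falls of Birc2, Fas and Tnfaip3 was not tested, and an array has no true 0 that would show a marker absent.

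**Figure D5:**
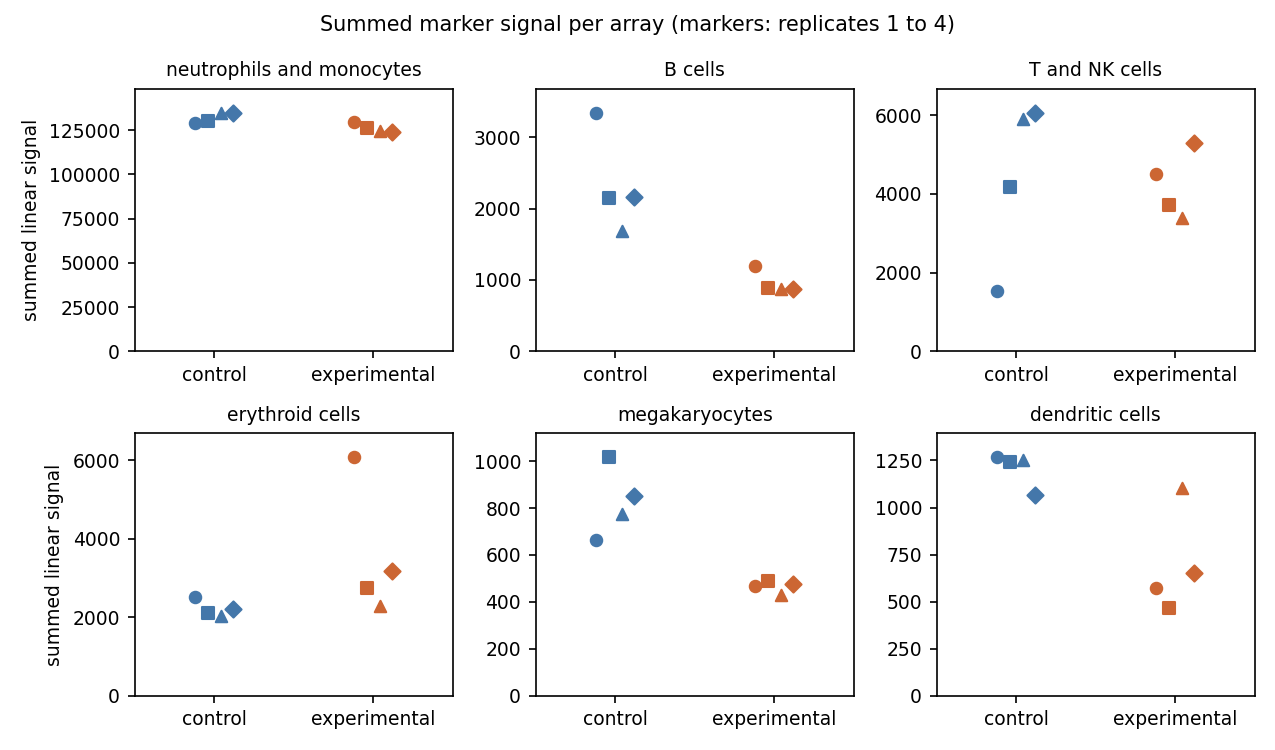
Sum of the linear signal over the markers of each cell type, a point per array, with its own axis from 0 in each panel; shapes give replicates 1 to 4. The experimental points lie below all controls for B cells (867.7 to 1199 against 1688 to 3340) and megakaryocytes (429.6 to 488.4 against 664 to 1017).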

How the data were processed

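Each array (Affymetrix, mouse) received labelled cRNA made from 2.5 µg of total RNA. The authors deposited log2 values per probe set, made with RMA per the submitters' processing notes, without a version. Of 45101 probe sets, 64 Affymetrix controls were left out, and 34945 of the remaining 45037 had 1 gene symbol. Groups came from the sample titles. Experimental minus control was fitted on group alone (lmFit and eBayes of limma 3.58.1, under R 4.3.3), with Benjamini-Hochberg adjustment over the whole table, a threshold of 0.05 and unadjusted 95% intervals. The code was tested on simulated data, and the number of arrays limits the precision.

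Deviations from group means correlated at 0.205 to 0.264 between arrays of the same number, at 0.141 to 0.257 between differently numbered arrays of the same code style, and at -0.266 to -0.135 across styles. Pairing by replicate number therefore cannot be told apart from code style here, and a call that either block changes is given with both. Alternatives were array weights, trended and robust variance, 2 filters on low levels (a mean of at least 6, or above the median), median centring, repeated quantile normalization, other probe sets for pathway genes, blocks for replicate number, code style and inferred sex, and leaving out each array. Members and lists were chosen with earlier results of these data known. Genes outside the members were named by rule: those past the threshold in each pathway list or, where none passed, the 2 with the smallest p; the 3 brightest of a marker list, beside which further markers were named after their values were seen; and the 3 genes most correlated with Birc2 and with Apaf1.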

Additional observations from a re-analysis of the deposited data

How the results depend on the processing

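Over 17 alternatives, 296 of 312 member differences kept their sign and their side of the threshold. Birc2 lost its call in 11 alternatives, the dim Xiap probe set 1426636_a_at passed with the replicate block, and Casp6 at 1458715_at turned sign with array weights (-0.016) and in the fits without 1 array (-0.062 to 0.113; below 0 when control 2 or experimental 1 or 2 was left out). The number of member probe sets past the threshold was 2 with the replicate block, and 0 with median centring, quantile normalization, trended and robust variance or inferred sex as a block (limma; 3, 3, 3 and 2 at an unadjusted p of 0.05), and 0 to 1 without 1 array (in the 7 such fits with 0, 1 to 4 at an unadjusted p of 0.05). Of the pathway genes, 1 passed with median centring, trended and robust variance or inferred sex as a block, 4 with code style as a block, and 1 to 2 without 1 array; Fas kept its call in 7 of the 17 alternatives and Tnfaip3 in all 17. Of all probe sets 1162 passed, 2277 with the replicate block, 2582 with code style as a block, 663 with inferred sex as a block, and 395 to 1744 without 1 array, the lowest without control replicate 2 and the highest without experimental replicate 2. The cause of these shifts was not tested; fits without 1 array have fewer samples. The interaction with code style called 0 member probe sets in every setting run (limma; 0 or 1 at an unadjusted p of 0.05). The replicate block changed no other call of a member. Probe sets below the median level, 4 of Xiap and 1 of Casp6, and Xiap 1450231_a_at near it (mean 5.31), limit what can be said of small changes.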
